A study of Mus musculus with 20 samples.

Results

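Trimethylation of lysine 27 of histone H3 (H3K27me3) was mapped by chromatin immunoprecipitation (ChIP) in mouse embryonic fibroblasts (MEFs) that lacked PML and in wild-type MEFs. The 2 lists of called regions held 12326 regions for the knockout and 17661 for wild-type on chromosomes 1 to 19 and X. These 29987 regions were taken whole, out of 120433 regions in the 12 ChIP lists of the series, and again after a minimum of 3 was set on the signal that the lists give for each region. That minimum kept 9036 knockout and 14393 wild-type regions. Both genotypes were on a C57BL/6 background, from Pml-null and from wild-type mice, at passage 10 to 15. The cells were native, grown in proliferating conditions to confluence, fixed with formaldehyde, and precipitated with an H3K27me3 antibody from Diagenode. Each genotype gave 1 H3K27me3 library, so no value below has a replicate error and no p-value was computed. The age and sex of the embryos, the number of animals and whether a line was 1 clone are not stated in the labels. The series also holds ChIP of H3, H3K9me3, PML and tagged H3.3 and 8 RNA samples of the same genotypes, 20 samples in all, which are used here only beside the H3K27me3 results.

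H3K27me3 is written by Polycomb repressive complex PRC2, whose catalytic subunit is EZH2 or EZH1, and is removed by the demethylases KDM6A and KDM6B. It lies in narrow domains over silent CpG-rich promoters of developmental regulators, in wide blankets over silent gene-poor chromatin, and along nearly the whole of the inactive X chromosome of female cells, where the RNA Xist recruits Polycomb. In fibroblasts it covers the regulators of other lineages, such as Hox genes of other body levels, and is absent from most transcribed genes. PML is the scaffold protein of PML nuclear bodies, which take up many chromatin regulators.

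The check of the knockout rested on PML ChIP, which gave 35 called regions in the knockout and 484 in wild-type. Pml RNA was 10.2 FPKM (fragments scaled by transcript length and by mapped fragments) in the knockout and 15.0 FPKM in wild-type in tables that pool 3 numbered replicates per genotype. A further, unnumbered RNA sample per genotype gave 4.22 FPKM in the knockout and 7.62 FPKM in wild-type. The labels do not say which exons were deleted, so these RNA values over the whole gene check nothing. Summed RNA of 10 fibroblast markers was 4851 FPKM in the knockout and 10654 FPKM in wild-type in the numbered tables, and 9694 FPKM in the knockout and 11774 FPKM in wild-type in the unnumbered ones. Of the 10 fibroblast marker genes, 0 were at least 50% covered by H3K27me3 in either genotype. The read depth of the libraries is unknown. The signal per region is the authors' own value. It was used to rank or filter regions within a list, except that 10 starts below were chosen by the lower signal of the genotypes. Where the signals of both lists stand side by side they describe each list on its own scale. On chromosomes 1 to 9 and X the signal times the region's number of 1 kb bins was a whole number for 100% of regions. On chromosomes 10 to 19 this held for 4.17 to 5.94% of knockout regions and 3.14 to 5.21% of wild-type regions per chromosome, so a minimum of 3 need not mean the same there, and those chromosomes are also given apart.

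Promoter sequences from RefSeq (GRCm38.p6, the assembly of mm10) show the kinds of start site that the results below turn on. Each runs from 250 bases before to 50 bases after the annotated start, on the gene's strand, with CG dinucleotides in capitals. On X, the start of Ddx3x (an RNA helicase gene that escapes X inactivation; chrX:13280772-13281071, plus strand) and that of Kdm5c (a histone demethylase gene that also escapes; chrX:152232977-152233276, plus strand) lay outside the calls of both genotypes. The start of Hprt (a purine salvage enzyme gene subject to inactivation; chrX:52987828-52988127, plus strand) lay inside the calls of both. That of Mid1 (a ubiquitin ligase gene at the distal end of X; chrX:169684949-169685248, plus strand) was called in the knockout alone.
Ddx3x: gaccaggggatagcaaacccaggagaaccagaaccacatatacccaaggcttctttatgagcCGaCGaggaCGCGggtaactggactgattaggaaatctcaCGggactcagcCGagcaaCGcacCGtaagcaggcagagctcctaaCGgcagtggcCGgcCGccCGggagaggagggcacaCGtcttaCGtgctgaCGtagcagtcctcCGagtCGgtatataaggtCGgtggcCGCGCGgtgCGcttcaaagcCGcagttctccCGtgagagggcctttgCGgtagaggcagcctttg
Kdm5c: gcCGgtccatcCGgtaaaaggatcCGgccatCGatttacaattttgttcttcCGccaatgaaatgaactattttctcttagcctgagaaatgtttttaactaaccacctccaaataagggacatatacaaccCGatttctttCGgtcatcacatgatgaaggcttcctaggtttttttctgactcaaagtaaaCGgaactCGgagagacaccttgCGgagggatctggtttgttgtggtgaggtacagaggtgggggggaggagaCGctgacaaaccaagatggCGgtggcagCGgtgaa
Hprt: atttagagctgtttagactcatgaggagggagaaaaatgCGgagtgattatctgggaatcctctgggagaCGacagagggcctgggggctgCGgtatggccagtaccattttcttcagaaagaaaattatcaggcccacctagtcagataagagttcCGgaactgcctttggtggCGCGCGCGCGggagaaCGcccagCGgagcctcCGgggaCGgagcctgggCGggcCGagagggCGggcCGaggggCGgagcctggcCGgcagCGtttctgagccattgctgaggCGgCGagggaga
Mid1: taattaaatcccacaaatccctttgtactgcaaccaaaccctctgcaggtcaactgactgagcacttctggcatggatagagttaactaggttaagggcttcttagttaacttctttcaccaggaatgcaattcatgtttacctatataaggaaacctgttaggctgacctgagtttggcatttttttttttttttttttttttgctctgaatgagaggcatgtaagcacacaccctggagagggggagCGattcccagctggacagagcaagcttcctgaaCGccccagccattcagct

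On autosomes, Spock1 (chr13:57908283-57908582, minus strand) and Pclo (chr5:14514668-14514967, plus strand) had a start called in both genotypes and a gene body covered in the knockout alone. The start of Skor1 (chr9:63148912-63149211, minus strand) was among the strongest in both. The start of Kif26b (chr1:178528875-178529174, plus strand) was called in wild-type alone. Slit3 (chr11:35121206-35121505, plus strand) had a start called in both and a body covered in wild-type alone.
Spock1: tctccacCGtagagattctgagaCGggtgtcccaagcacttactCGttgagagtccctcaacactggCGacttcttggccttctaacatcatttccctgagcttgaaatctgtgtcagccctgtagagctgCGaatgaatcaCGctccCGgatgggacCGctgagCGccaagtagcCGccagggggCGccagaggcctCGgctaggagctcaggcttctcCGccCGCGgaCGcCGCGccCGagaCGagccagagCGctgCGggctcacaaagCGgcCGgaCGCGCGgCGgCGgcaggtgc
Pclo: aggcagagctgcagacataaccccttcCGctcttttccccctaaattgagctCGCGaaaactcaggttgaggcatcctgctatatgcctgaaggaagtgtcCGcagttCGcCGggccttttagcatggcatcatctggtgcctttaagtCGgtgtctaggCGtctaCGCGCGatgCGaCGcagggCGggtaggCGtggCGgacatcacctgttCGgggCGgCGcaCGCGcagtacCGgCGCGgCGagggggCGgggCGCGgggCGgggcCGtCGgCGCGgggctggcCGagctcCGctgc
Skor1: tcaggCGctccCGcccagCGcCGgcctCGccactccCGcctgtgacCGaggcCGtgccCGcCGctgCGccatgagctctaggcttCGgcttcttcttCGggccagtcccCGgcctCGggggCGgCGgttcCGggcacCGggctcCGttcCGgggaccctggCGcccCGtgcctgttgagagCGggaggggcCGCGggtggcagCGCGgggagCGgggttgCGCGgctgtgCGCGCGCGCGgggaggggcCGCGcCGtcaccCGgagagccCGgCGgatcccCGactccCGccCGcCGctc
Kif26b: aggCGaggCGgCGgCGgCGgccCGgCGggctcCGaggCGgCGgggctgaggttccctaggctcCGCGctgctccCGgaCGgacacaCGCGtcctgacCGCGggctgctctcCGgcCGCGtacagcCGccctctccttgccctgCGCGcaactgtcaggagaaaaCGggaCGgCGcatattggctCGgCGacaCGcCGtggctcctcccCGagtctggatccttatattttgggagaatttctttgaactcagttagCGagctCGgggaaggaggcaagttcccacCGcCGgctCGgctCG
Slit3: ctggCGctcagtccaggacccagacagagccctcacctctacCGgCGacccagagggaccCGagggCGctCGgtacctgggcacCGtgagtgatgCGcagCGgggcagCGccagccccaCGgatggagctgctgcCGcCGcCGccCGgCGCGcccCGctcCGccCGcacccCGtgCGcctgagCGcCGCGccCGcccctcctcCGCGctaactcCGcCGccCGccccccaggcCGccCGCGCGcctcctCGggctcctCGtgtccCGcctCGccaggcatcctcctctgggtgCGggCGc

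These 300-base windows held 25 CG dinucleotides in Ddx3x, 13 in Kdm5c, 22 in Hprt and 2 in Mid1. Of the 26794 promoters of the same length in the table, 18.6% held as many as Ddx3x, 38.8% as many as Kdm5c, 23.5% as many as Hprt and 85.6% as many as Mid1. The autosomal windows held 29 in Spock1, 35 in Pclo, 46 in Skor1, 38 in Kif26b and 41 in Slit3. As many were held by 12.9% of promoters for Spock1, 6.81% for Pclo, 1.60% for Skor1, 4.82% for Kif26b and 3.36% for Slit3. CG-rich starts were thus among those called in both genotypes, those called in wild-type alone and those of X genes outside every call, and the CG-poor example was Mid1. A promoter was in the table for 17274 of 21631 protein-coding genes (79.9%).

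The knockout regions covered 1018 Mb and the wild-type regions 962 Mb of the 2573 Mb analysed, 39.6% in the knockout and 37.4% in wild-type. The difference of 56.1 Mb came from a pair of chromosomes. X gave 36.2 Mb and chromosome 5 gave 26.1 Mb, and over the other 18 autosomes together the difference was -6.20 Mb (ratio of knockout to wild-type 0.992). For regions with a signal of 3 or more the totals were 854 Mb in the knockout and 837 Mb in wild-type. The difference there was 16.7 Mb, made of 61.2 Mb on X, 25.9 Mb on chromosome 5 and -70.4 Mb on the other 18 autosomes, for a ratio of 0.898 over those 18. In bulk chromatin, a mark in fewer cells and less mark per cell cannot be told apart.

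**Figure D1:**
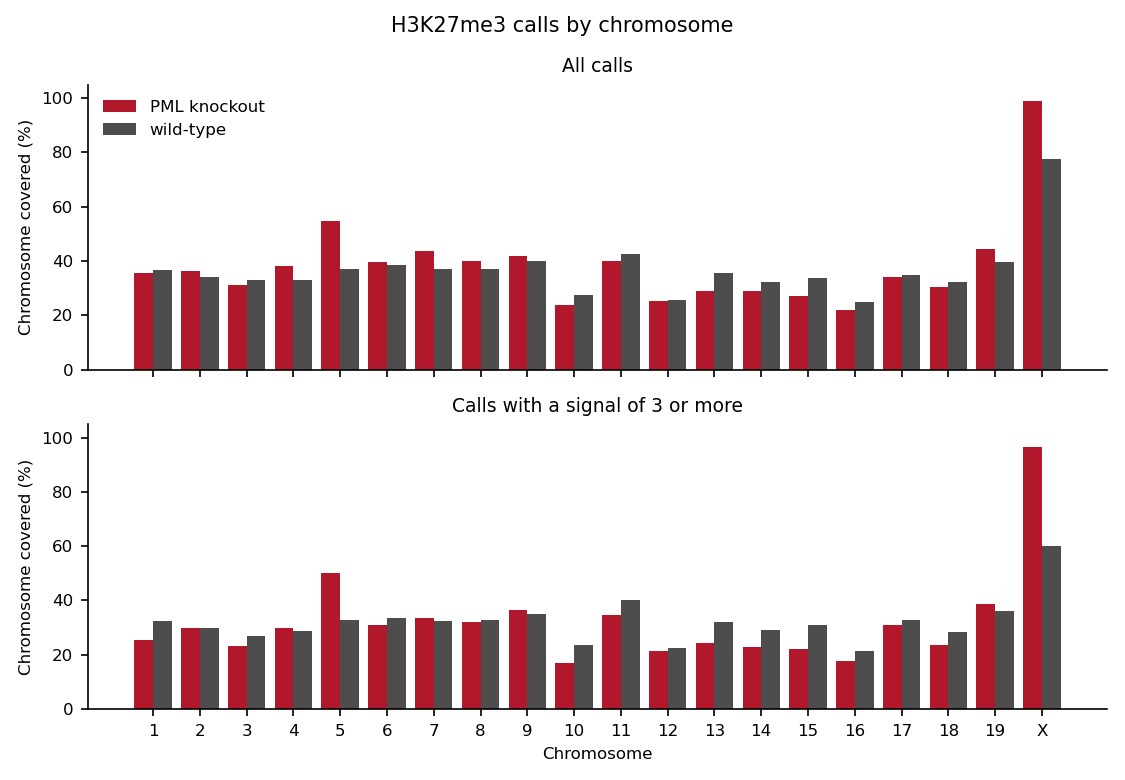
Share of each chromosome (%) covered by H3K27me3 calls, with PML knockout in red on the left and wild-type in grey on the right of each pair, for all calls (top) and calls with a signal of 3 or more (bottom). X reaches 98.9% in the knockout and 77.4% in wild-type, and chromosome 5 reaches 54.5% in the knockout and 37.0% in wild-type.

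Away from X and 5, the knockout covered 21.8 to 44.2% and wild-type 24.8 to 42.7% of an autosome. The knockout covered more on 7 of these 18 autosomes with all calls and on 4 of 18 at a signal of 3 or more. With all calls the highest ratio was 1.17 on chromosome 7 and the lowest 0.802 on chromosome 15, and with the minimum of 3 the highest was 1.07 on chromosome 19 and the lowest 0.712 on chromosome 10. On chromosomes 1 to 9 without 5 the knockout covered more on 6 of 8, for a summed ratio of 1.05, and at a signal of 3 or more on 3 of 8, for a ratio of 0.947. On chromosomes 10 to 19 it covered more on 1 of 10, chromosome 19 (ratio 1.12), and the summed ratio was 0.914 with all calls and 0.835 at a signal of 3 or more. These sets of autosomes therefore differed in direction with all calls, and both had less covered length in the knockout once weak calls were removed.

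**Figure D2:**
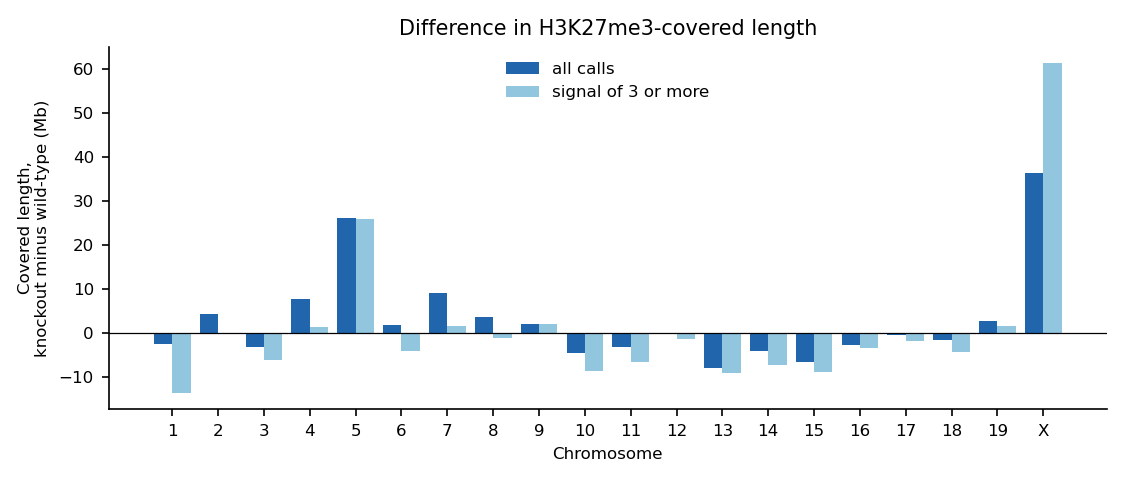
Covered length in the knockout minus wild-type (Mb) on each chromosome, for all calls (dark blue) and calls with a signal of 3 or more (light blue). Bars above 0 mean more covered length in the knockout; chromosomes 5 and X stand above the rest, and with a signal of 3 or more 14 of the other 18 autosomes lie below 0.

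Most of the marked genome was common to the genotypes. Both lists called 761 Mb, which was 74.7% of the knockout length and 79.1% of the wild-type length. With the minimum of 3 the common length was 71.5% of the knockout and 72.9% of the wild-type length. By number, 9604 of 12326 knockout regions (77.9%, Wilson 95% interval 77.2 to 78.6%) and 12331 of 17661 wild-type regions (69.8%, 69.1 to 70.5%) overlapped a region of the other genotype by at least 1 bp. At a signal of 3 or more in both lists these shares were 76.2% (75.3 to 77.0%) for the knockout and 57.0% (56.2 to 57.8%) for wild-type. The intervals cover counting error only. On chromosomes 1 to 9 the shares were 74.8% for the knockout and 72.6% for wild-type, and on chromosomes 10 to 19 they were 84.9% for the knockout and 60.3% for wild-type. Regions without any counterpart held 26.3 Mb in the knockout and 111 Mb in wild-type on autosomes, and 0 Mb and 0.169 Mb on X. They were short in both, with a median of 7 kb in the knockout and 12 kb in wild-type.

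Knockout regions were fewer and included far more very long ones. On autosomes the median region was 16 kb in the knockout and 18 kb in wild-type. Regions over 300 kb numbered 717 in the knockout and 395 in wild-type, and held 392 Mb (46.0% of the covered length) in the knockout and 170 Mb (20.5%) in wild-type. Regions over 1 Mb numbered 57 (72.8 Mb) in the knockout and 4 (4.50 Mb) in wild-type. The middle sizes went the other way, with 3102 knockout and 4958 wild-type regions of 10 to 30 kb, and 2269 knockout and 3792 wild-type regions of 30 to 100 kb. Without chromosome 5 the counts over 300 kb were 639 in the knockout and 360 in wild-type. With the minimum of 3, the knockout kept 574 autosomal regions of 300 kb to 1 Mb and 53 over 1 Mb, and wild-type kept 386 and 4 of those sizes.

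**Figure D3:**
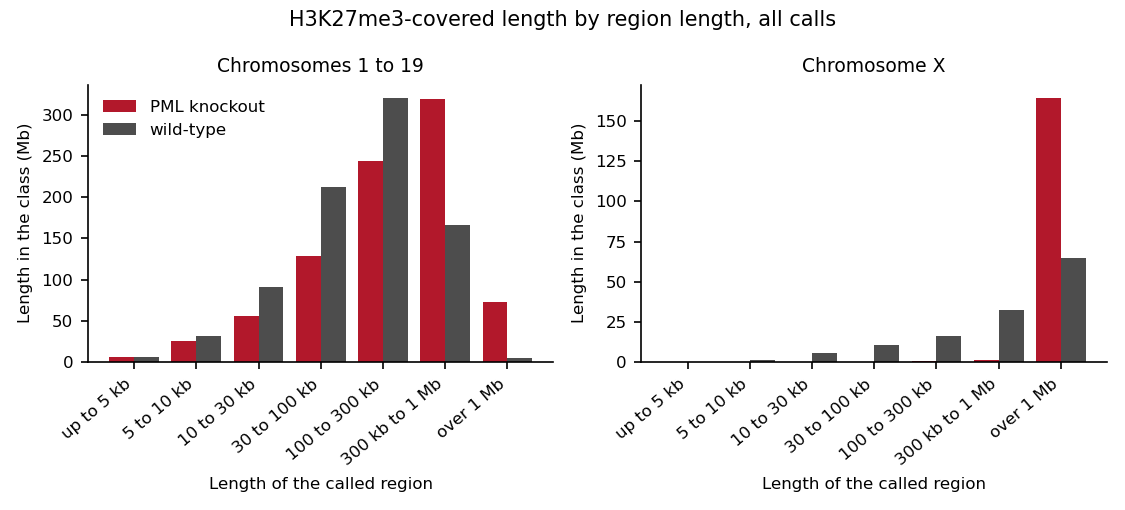
Covered length (Mb) held by regions of each length class, all calls, on chromosomes 1 to 19 (left) and X (right), with PML knockout in red left of wild-type in grey. Autosomal regions over 1 Mb hold 72.8 Mb in the knockout and 4.50 Mb in wild-type, and on X the knockout length lies almost wholly in regions over 1 Mb.

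Knockout regions overlapped 2 or more wild-type regions more often than the reverse. On autosomes, 1306 knockout regions (10.6%) held 2 or more wild-type regions, up to 21 in one, and covered 413 Mb. The reverse held for 638 wild-type regions (3.80%), with up to 5 knockout regions in one and 118 Mb in all. Of the 221 Mb of autosomal length called in the knockout only, 88.1% lay in knockout regions that also overlapped a wild-type region. Of the 201 Mb called in wild-type only, 44.8% lay in wild-type regions that overlapped a knockout region. The rest lay in regions with no knockout counterpart. Overlap by at least 1 bp was more frequent in long regions. On autosomes it held for 45.4% of knockout regions up to 5 kb and 99.4% of those of 100 to 300 kb. For wild-type regions of these lengths the shares were 43.7% and 93.5%. The shares of 88.1% and 44.8% therefore cannot show by themselves that domains were extended or joined. The longest autosomal knockout region (chr6:22497001-24513000, mm10, 2016 kb) held 21 wild-type regions, which covered 28.4% of it, and spans Ptprz1 (a receptor tyrosine phosphatase of glia), Cadps2 (a vesicle priming factor) and Fezf1 (a zinc finger regulator of olfactory development). The next (chr5:25850001-27738000, 1888 kb) spans Dpp6, a potassium channel subunit, and was 30.6% called in wild-type. The one after it (chr9:46303001-48161000, 1858 kb) spans Cadm1, an adhesion molecule, and was 28.8% called in wild-type. The longest autosomal wild-type regions were called over most of their length in the knockout. The first (chr4:41766001-42949000, 1183 kb), over a cluster of Ccl19, Ccl21 and Ccl27 chemokine genes, was 100% called in the knockout. The second (chr7:135719001-136893000, 1174 kb), with 0 protein-coding genes, was 99.9% called, and the third (chr13:43566001-44702000, 1136 kb), which spans Rnf182 and Cd83, was 94.9% called.

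The signals of each list were spread differently on X and elsewhere. Median signal over all chromosomes was 6.5 in the knockout list and 7.4 in the wild-type list, and on X it was 7.65 in the knockout list and 3.21 in the wild-type list. Regions under 3 made up 26.7% of knockout regions (3289 regions, 16.1% of the covered length) and 18.5% of wild-type regions (3265 regions, 13.0%). On X alone, regions under 3 made up 26.9% of knockout regions (7 regions) and 46.8% of wild-type regions (410 regions). Over all chromosomes, regions of 30 or more numbered 688 (76.1 Mb) in the knockout and 1632 (152 Mb) in wild-type. Mean signal per covered bin was 9.01 to 17.3 in the knockout and 13.4 to 23.1 in wild-type over the 18 autosomes other than 5, and on chromosome 5 it was 19.2 in the knockout and 18.8 in wild-type. How the signal was scaled between libraries is not given in the sources used here, so these values describe each list. Just below the minimum, at 2.5 to 3, lay 496 knockout and 662 wild-type regions. Just above it, at 3 to 3.5, lay 488 knockout and 654 wild-type regions. Of the knockout regions 74.2% below and 72.5% above the minimum overlapped a wild-type region, and of the wild-type regions 61.8% below and 64.1% above overlapped a knockout region.

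X was covered almost end to end in the knockout. There 26 regions with a median of 3573 kb covered 98.9% of the chromosome. In wild-type 876 regions with a median of 23 kb covered 77.4%. After the minimum of 3 was set, 19 knockout regions covered 96.6% and 466 wild-type regions covered 60.2%. The wild-type calls were nested in those of the knockout, with 99.8% of the wild-type length on X also called in the knockout, and 78.1% of the knockout length also called in wild-type. The longest knockout region (chrX:21731001-44613000) ran for 22.9 Mb, and the longest wild-type region (chrX:69792001-75420000) for 5.63 Mb. In all 17 windows of 10 Mb along X the knockout covered more, at 95.2 to 100% against 20.1 to 97.2% in wild-type. The knockout region of highest signal on X (23.1; chrX:103626001-105033000) begins distal to Xist and spans Rlim, a ubiquitin ligase gene that controls Xist.

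The gaps in this blanket held several genes known to escape X inactivation, among them Ddx3x, Kdm6a, Eif2s3x and Kdm5c. The knockout calls left 25 gaps on X, 1.48 Mb in all, with a median of 21 kb and a longest of 466 kb. Wild-type calls filled 16.0% of the gap length, while they filled 77.4% of X as a whole, and 17 of the 25 gaps held 0 wild-type calls. Inside 7 gaps lay at least 50% of the body of 8 protein-coding genes. These were Ddx3x, Kdm6a (an H3K27 demethylase), Eif2s3x (a translation initiation factor), Kdm5c, Pbdc1, Fmr1 (an RNA-binding protein), Magee1 and Pcdh11x (a protocadherin). None of these 8 was 50% covered in wild-type. The noncoding genes Jpx and Ftx, which neighbour Xist and activate it, and the escaping noncoding gene 5530601H04Rik were at 0% in both genotypes, and Xist itself was 68.4% covered in both. Hprt, Pgk1, G6pdx, Usp9x, Huwe1, Iqsec2, Atrx, Utp14a and Car5b were 100% covered in both. Of 10 listed escape genes, 4 were 50% covered in the knockout and 3 in wild-type. Utp14a, Car5b and Xist were the listed escape genes covered in both. The one that differed was Mid1 at 100% in the knockout and 4.91% in wild-type. Mid1 spans the pseudoautosomal boundary in C57BL/6 mice.

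Gene bodies on X followed the same order. Of 966 X-linked protein-coding genes, 958 were at least 50% covered in the knockout and 860 in wild-type, and at a signal of 3 or more 951 in the knockout and 789 in wild-type. Genes covered in the knockout alone (cover higher by at least 50 percentage points) numbered 97 with all calls, 10.0% of X genes, beside 4.43% of all protein-coding genes, and those covered in wild-type alone 0, beside 5.44% of all. The count at a signal of 3 or more was 166 for the knockout, 17.2% of X genes beside 3.98% of all. For wild-type it was 5, 0.518% of X genes beside 6.47% of all. The 5 wild-type genes were Dcaf12l1, Slitrk4, Gm6760, 3830417A13Rik and Gm52432, named after their values were seen.

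Markers of sex differed between samples, and their part in the X result was not tested. Xist RNA was 0.0517 FPKM in the knockout and 19.5 FPKM in wild-type in the numbered tables, and 8.25 FPKM in the knockout and 5.89 FPKM in wild-type in the unnumbered samples. The Y-linked helicase gene Ddx3y was at 7.67 FPKM in the knockout and 0.0384 FPKM in wild-type in the numbered tables, and at 11.4 FPKM in the knockout and 21.7 FPKM in wild-type in the unnumbered samples. The numbered tables therefore had Xist RNA in wild-type and Ddx3y RNA in the knockout, and the unnumbered samples had both in both genotypes. The labels do not say whether the ChIP cells came from the cultures of either RNA set. On Y the H3K27me3 lists held 2 knockout regions with a signal of 0 and 7 wild-type regions with signals of 0.133 to 6.4. ChIP of unmodified H3 called 13.5% of X in the knockout and 1.95% in wild-type.

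RNA of X-linked genes was measured against this cover. Differences are given as log2(FPKM + 1), knockout minus wild-type, for genes with at least 1 FPKM in either genotype. The median over X genes was 0.26 in the numbered and 0.04 in the unnumbered pair. Over the 22 measured X genes covered in the knockout alone it was 0.32 in the numbered and 0.11 in the unnumbered pair, so their RNA was not lower in the knockout at the median. Ddx3x was at 99.8 FPKM in the knockout and 84.7 FPKM in wild-type in the numbered pair, and at 80.1 FPKM in the knockout and 58.5 FPKM in wild-type in the unnumbered pair. Kdm5c was at 14.2 FPKM in the knockout and 14.5 FPKM in wild-type, and at 27.6 FPKM in the knockout and 23.2 FPKM in wild-type in the unnumbered pair. Mid1, covered in the knockout alone, was at 10.7 FPKM in the knockout and 17.3 FPKM in wild-type, and at 12.7 FPKM in the knockout and 14.7 FPKM in wild-type in the unnumbered pair. Col4a5, a basement membrane collagen gene on X covered 100% in the knockout and 28.5% in wild-type, was at 12.9 FPKM in the knockout and 17.7 FPKM in wild-type, and at 35.2 FPKM in the knockout and 37.2 FPKM in wild-type in the unnumbered pair.

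Chromosome 5 was the autosome with the largest difference. The knockout covered 81.2 Mb (54.5%) in 763 regions with a median of 27 kb, and wild-type covered 55.1 Mb (37.0%) in 1145 regions with a median of 15 kb. Regions of signal 3 or more covered 50.1% in the knockout and 32.7% in wild-type. The wild-type calls were again mostly nested, with 90.9% of the wild-type length called in the knockout and 61.7% of the knockout length called in wild-type. In 14 of 15 windows of 10 Mb the knockout covered more, so the excess ran along the chromosome and not at one locus. Regions over 300 kb held 49.3 Mb (78 regions) in the knockout and 14.4 Mb (35 regions) in wild-type. Genes covered in the knockout alone numbered 90 (7.09% of the chromosome's genes, beside 4.43% of all), among them Tmem132d and Pclo. Those covered in wild-type alone numbered 29 (2.29%, beside 5.44% of all).

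Calls of unmodified H3 and of H3K9me3 also covered more of chromosome 5 in the knockout, and those of tagged H3.3 differed little. Calls of unmodified H3 covered 53.0% of it in the knockout and 34.4% in wild-type, against 6.60 to 38.3% (knockout) and 3.97 to 27.4% (wild-type) on the other autosomes. H3K9me3 calls covered 77.4% in the knockout and 41.2% in wild-type, against 11.4 to 40.5% (knockout) and 18.7 to 48.1% (wild-type) elsewhere. Calls of Flag-tagged H3.3 covered 13.1% in the knockout and 11.6% in wild-type. Elsewhere they covered 9.29 to 18.4% (knockout) and 8.97 to 16.9% (wild-type). The part of the H3 and H3K9me3 calls in the H3K27me3 result on chromosome 5 was not tested. The median RNA difference of all measured chromosome 5 genes was 0.05 in the numbered and 0.06 in the unnumbered pair, against 0.06 and 0.01 over all genes. Over the 9 measured genes of chromosome 5 covered in the knockout alone it was 0.57 in the numbered pair, and over 11 such genes it was -0.38 in the unnumbered pair. With the signal minimum of 3 these medians were 0.19 (11 genes) in the numbered and -0.39 (14 genes) in the unnumbered pair.

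Across the genome a similar number of genes was marked in each genotype. Of 21631 protein-coding genes, 6998 were at least 50% covered in the knockout and 7326 in wild-type, and 5945 of them were marked in both with a difference of under 50 points. Covered in the knockout alone were 958 genes (4.43% of all) and in wild-type alone 1177 genes (5.44%). With the minimum of 3 the counts were 861 for the knockout (3.98%) and 1399 for wild-type (6.47%). Without chromosomes 5 and X they were 771 for the knockout and 1148 for wild-type with all calls. On chromosomes 1 to 9 they were 646 for the knockout and 647 for wild-type, and on chromosomes 10 to 19 they were 215 for the knockout and 530 for wild-type. Genes covered in the knockout alone had a median length of 7.20 kb and shared regions, with 958 genes in 448 knockout regions and up to 34 genes in one. Those covered in wild-type alone had a median length of 16.2 kb and lay in 962 wild-type regions, with up to 10 genes in one. Just below the difference of 50 points, from 40 to 50, lay 97 genes higher in the knockout and 221 higher in wild-type, and from 50 to 60 lay 85 higher in the knockout and 197 higher in wild-type.

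The longest genes covered in the knockout alone were named by length among genes with at least 90% cover in one genotype and at most 10% in the other. Ntm (neurotrimin, a neuronal adhesion molecule; chr9:28994749-29963269) was covered 100% in the knockout and 4.26% in wild-type. Diaph2 (a formin that nucleates actin, on X) was at 98.5% in the knockout and 2.96% in wild-type, and Tmem132d (a membrane protein of the nervous system, on 5) at 100% in the knockout and 1.39% in wild-type. Mid1, given above, was also among the 8 longest. Clstn2 (calsyntenin-2, a synaptic cadherin) was at 100% in the knockout and 7.70% in wild-type. Spock1 (testican-1, a proteoglycan) was at 100% in the knockout and 7.66% in wild-type, and Pclo (piccolo, a presynaptic scaffold) at 100% in the knockout and 1.75% in wild-type. Hs3st4, a heparan sulfate sulfotransferase gene, was at 100% in the knockout and 2.31% in wild-type, but its knockout region had a signal of 2.68 and was absent at the minimum of 3. At that minimum Il1rapl1 (a synaptic receptor, on X) was covered 100% in the knockout and 7.71% in wild-type, Sorcs3 (a sorting receptor of neurons) 100% in the knockout and 6.00% in wild-type, and Dach2 (a transcriptional cofactor, on X) 98.1% in the knockout and 5.48% in wild-type.

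Some of these long genes carried the mark at their start in both genotypes, and differed in the body. For Ntm the start in the RefSeq table (chr9, position 29413452) lies inside the gene, and it was in a region of signal 6.84 in the knockout and 31.3 in wild-type. The start of Clstn2 was at 12.3 in the knockout and 8.49 in wild-type, that of Spock1 at 14.9 in the knockout and 9.81 in wild-type, and that of Pclo at 10.6 in the knockout and 22.0 in wild-type. Their wild-type regions ended within the gene and the knockout regions ran through it. Over all 777 genes covered in the knockout alone that have a start in the RefSeq table, the start was called in both genotypes for 141 (18.1%), in the knockout alone for 605 and in neither for 31. The median number of CG dinucleotides at those starts was 2, against 6 for genes covered in both genotypes and 14 over all genes with a start in the table. Olfactory and vomeronasal receptors made up 225 of the 958 genes covered in the knockout alone.

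The longest genes covered in wild-type alone were chosen in the same way. Tenm4 (teneurin-4, a transmembrane adhesion protein; chr7:96171244-96911093) was covered 5.00% in the knockout and 99.0% in wild-type. Slit3 (a secreted guidance ligand of Robo receptors; chr11:35121456-35708507) was at 9.72% in the knockout and 97.6% in wild-type, and Rims2 (a presynaptic active zone protein) at 0% in the knockout and 94.0% in wild-type. Kif26b (a kinesin family member needed for kidney development) and Clybl (a mitochondrial lyase) were each at 0% in the knockout and 100% in wild-type. Csrnp3 was at 1.37% in the knockout and 94.8% in wild-type, Abca12 (a lipid transporter of the skin barrier) at 3.44% in the knockout and 100% in wild-type, and Slc22a23 (a solute carrier) at 3.78% in the knockout and 90.5% in wild-type. With the minimum of 3, Pdzd2 joined with 3.94% in the knockout and 96.5% in wild-type. So did Ebf2 (a regulator of brown fat cells) with 0% in the knockout and 97.5% in wild-type, and Pcsk6 (a proprotein convertase) with 0% in the knockout and 97.3% in wild-type. With all calls Ebf2 was still covered 67.6% in the knockout by weak regions, and Pcsk6 24.9%. Of the 881 genes covered in wild-type alone with a start in the table, the start was called in both for 124 (14.1%), in wild-type alone for 594 and in neither for 163, and the median number of CG dinucleotides was 8. Slit3 is an example with a start called in both, at a signal of 1.39 in the knockout and 22.0 in wild-type.

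Some starts had a high signal in both lists. The 10 protein-coding genes of highest signal at the start, taken as the lower of the genotypes, were called in both by construction. That choice leaves out starts strong in 1 genotype alone, so it cannot show whether the strongest starts were shared. It also sets signals of both lists side by side, though their scaling is not given. Skor1 (a corepressor of neuronal development) was at 102 in the knockout and 104 in wild-type, Tfap2e (an AP-2 factor) at 100.3 in the knockout and 99.8 in wild-type, and Hoxb8 at 99.5 in the knockout and 104 in wild-type. Gsc2 (a homeobox gene) was at 114 in the knockout and 136 in wild-type, and Fcgr3 (an Fc receptor of leukocytes) at 126 in the knockout and 147 in wild-type. H2-T-ps, Gm7030, Gm10499 and Gm11127 share 1 region of the major histocompatibility locus at 112 in the knockout and 102 in wild-type. The highest, at 500 in the knockout and 193 in wild-type, was a 19 kb region on chromosome 13 (chr13:120024001-120043000) with Gm36079 and Gm21188. Whether reads from near-identical copies were counted in such regions is not stated.

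Classical Polycomb targets were mostly covered in each genotype. Of 39 Hox genes, 32 were at least 50% covered in the knockout and 32 in wild-type, with a median cover of 100% in both, against 0% in both over all protein-coding genes. Genes covered in one genotype alone made up 5.13% of the Hox list in each direction, near the shares of all genes (4.43% for the knockout and 5.44% for wild-type). They were Hoxa6 (70.0% in the knockout, 0% in wild-type) and Hoxa4 (100% in the knockout, 0% in wild-type, by a region of signal 0.67) in one direction, and Hoxb3 (7.10% in the knockout, 58.5% in wild-type) and Hoxb4 (0% in the knockout, 100% in wild-type) in the other. Of 118 other developmental transcription factors, 93 were covered in the knockout and 97 in wild-type. Sim1, Bhlhe22 and Irx3 (by a region of signal 2.6, under the minimum of 3) were covered in the knockout alone. Covered in wild-type alone were 7, among them Lhx9, Cdx1, Emx2 and Dlx1. These are 2.54% of the list for the knockout and 5.93% for wild-type, the second near the share of all genes (5.44%). These factors pattern the hypothalamus and limb (Sim1, Lhx9), the gut (Cdx1) and the forebrain (Emx2, Dlx1). Cdx1, Emx2 and Dlx1 were each at 0% in the knockout and 100% in wild-type.

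Secreted signals and keratins included genes covered in wild-type alone, 24.0% of the secreted signals and 9.43% of the keratins, beside 5.44% of all genes. Of 50 genes in the list named secreted signals, 31 were covered in the knockout and 43 in wild-type. Their median cover was 80.5% in the knockout and 100% in wild-type. Of this list Fgf12 was covered in the knockout alone, and 12 genes in wild-type alone. Whether each listed product is secreted, that of Fgf12 included, was not checked. The count in wild-type alone was also 12 with the minimum of 3 (24.0%, beside 6.47% of all genes), but of other members in part. With all calls they included Wnt2 (0% in the knockout, 98.4% in wild-type by a region of signal 1.75, which the minimum removes), Wnt6 and Fgf18 (0% in the knockout, 100% in wild-type) and Wnt7b (23.3% in the knockout, 100% in wild-type), ligands of the Wnt and fibroblast growth factor pathways. Of 53 keratins, the filament proteins of epithelia, 42 were covered in the knockout and 49 in wild-type, with 0 in the knockout alone and 5 in wild-type alone. The 5 keratins held Krt19 and Krt15 (0% in the knockout, 100% in wild-type), Krt33a (4.23% in the knockout, 100% in wild-type) and Krt80 (0% in the knockout, 81.0% in wild-type), and lay in 4 regions. With the minimum of 3, 11 keratins (20.8%, beside 6.47% of all genes) were covered in wild-type alone. Of the epithelial markers, Cdh1 (E-cadherin) was at 2.47% in the knockout and 62.6% in wild-type and Krt18 at 0% in the knockout and 100% in wild-type.

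Receptor clusters included many genes covered in the knockout alone, 12.4% of olfactory and 24.6% of vomeronasal receptors, beside 4.43% of all genes. Of 1110 olfactory receptor genes, 377 were covered in the knockout and 254 in wild-type, 138 in the knockout alone and 15 in wild-type alone. Of 353 vomeronasal receptor genes, which detect pheromones, 137 were covered in the knockout and 54 in wild-type, 87 in the knockout alone and 4 in wild-type alone. At a signal of 3 or more, 84 olfactory (7.57%) and 43 vomeronasal genes (12.2%) were covered in the knockout alone, beside 3.98% of all. Those covered in wild-type alone numbered 27 olfactory (2.43%) and 4 vomeronasal (1.13%), beside 6.47% of all. These genes lie in clusters, and the 138 olfactory genes shared 54 knockout regions and the 87 vomeronasal genes 28. Vmn2r1 was at 100% in the knockout (by a region of signal 0.544) and 11.1% in wild-type, Vmn2r26 at 100% in the knockout and 0% in wild-type, and Olfr46 and Olfr365 at 100% in the knockout and 0% in wild-type. Chromosome 7 held the most genes covered in the knockout alone, 174 or 8.57% of its genes, and 92 of these were such receptors. As a share of the chromosome's genes X was higher, at 10.0%. Of 57 clustered protocadherins, neuronal adhesion genes on chromosome 18, 36 were covered in the knockout and 18 in wild-type, with a median cover of 68.4% in the knockout and 31.4% in wild-type. The median difference per gene was 0 points, and 6 genes (10.5%, beside 4.43% of all genes), in 2 knockout regions, were covered in the knockout alone. With the minimum of 3, 14 were covered in the knockout and 6 in wild-type, and the median cover was 7.26% in the knockout and 0% in wild-type.

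**Figure D4:**
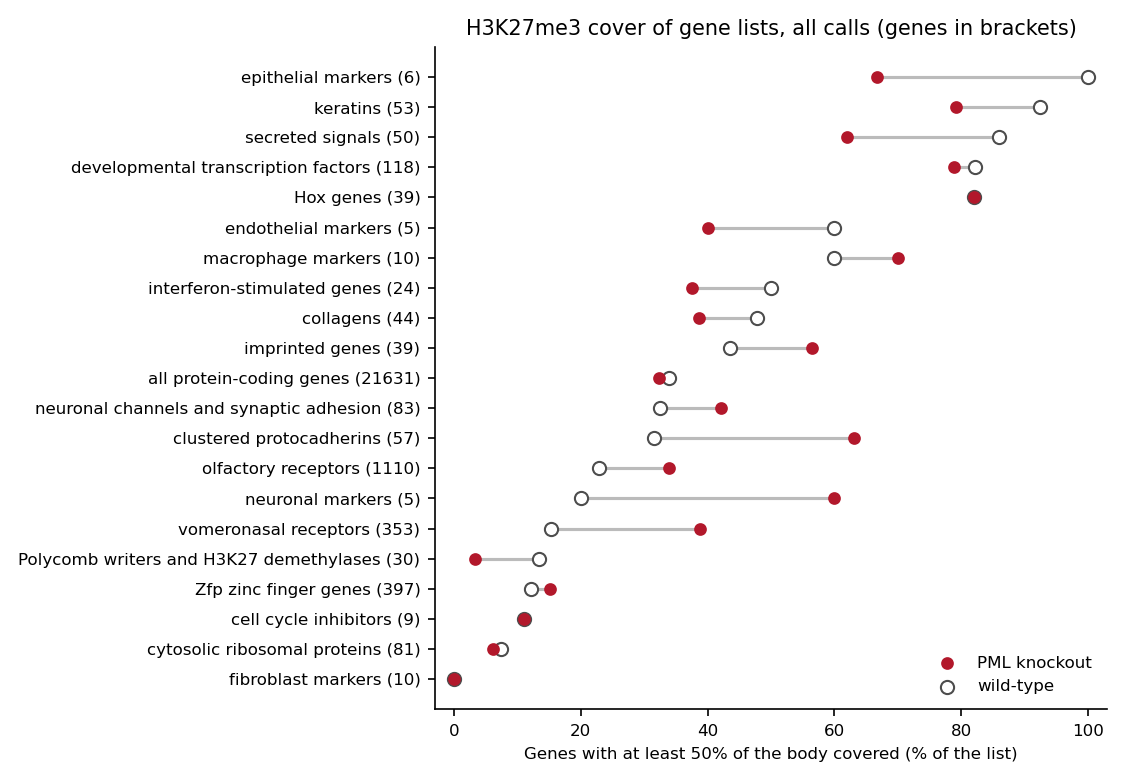
Share of each gene list (%) whose gene body is at least 50% covered by H3K27me3, all calls, in PML knockout (red, filled) and wild-type (grey, open), with the number of genes in brackets. Hox genes coincide at 82.1%, keratins and secreted signals are lower in the knockout, and olfactory and vomeronasal receptors and clustered protocadherins are higher in the knockout.

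The remaining lists differed by few genes, and their shares stand beside 4.43% (knockout alone) and 5.44% (wild-type alone) of all genes. Of 83 neuronal channel and synaptic adhesion genes, 35 were covered in the knockout and 27 in wild-type. Ntm, Dpp6 (100% in the knockout, 28.1% in wild-type), Rims1 (97.7% in the knockout, 28.3% in wild-type) and Gabrb1 (99.3% in the knockout, 44.8% in wild-type) led the 7 covered in the knockout alone (8.43% of the list). Cacna2d3 (0% in the knockout, 61.1% in wild-type), Slit3 and Rims2 were the 3 covered in wild-type alone (3.61%). With the minimum of 3, Rims1 fell to 43.3% in the knockout and Cacna2d3 to 39.3% in wild-type, so both left these groups. Of 44 collagens, 17 were covered in the knockout and 21 in wild-type, with Col22a1, Col19a1 and Col4a5 in the knockout alone (6.82%) and 7 in wild-type alone (15.9%), among them Col15a1 (6.96% in the knockout, 85.6% in wild-type) and Col5a3 (8.77% in the knockout, 100% in wild-type). The knockout regions over Col22a1 (signal 2.72) and Col19a1 (0.51) fall under the minimum of 3, which leaves Col4a5. Of 39 imprinted genes, 22 were covered in the knockout and 17 in wild-type. Sgce (100% in the knockout, 22.0% in wild-type) and Peg10 (100% in the knockout, 49.3% in wild-type), neighbours on chromosome 6, were among 5 in the knockout alone (12.8%), and Dlk1 (0% in the knockout, 100% in wild-type) and Rtl1 (0% in the knockout, 76.2% in wild-type), neighbours on chromosome 12, were the 2 in wild-type alone (5.13%). The order turned with the minimum of 3, with 15 imprinted genes covered in the knockout and 16 in wild-type. In the knockout alone were 2 (5.13%, beside 3.98% of all genes) and in wild-type alone 4 (10.3%, beside 6.47%). Rtl1, under a wild-type region of signal 2.33, was at 0% in both genotypes at that minimum. Of 24 interferon-stimulated genes, Tap1, Psmb8 and Ifit1 were each at 0% in the knockout and 100% in wild-type (12.5% of the list), and 0 were covered in the knockout alone. Of 397 Zfp zinc finger genes, 60 were covered in the knockout and 48 in wild-type. Among 30 genes of Polycomb writers and H3K27 demethylases, Cbx7 (0% in the knockout, 87.4% in wild-type) and Ring1 (0% in the knockout, 56.8% in wild-type) were covered in wild-type alone (6.67%). Cytosolic ribosomal protein genes, with 5 of 81 covered in the knockout and 6 in wild-type, and cell cycle inhibitors, with 1 of 9 in each genotype, were mostly free of the mark.

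Marker genes of other cell types were covered in part. Of 10 macrophage markers, 7 were covered in the knockout and 6 in wild-type, and Adgre1 in the knockout alone (100% in the knockout, 21.1% in wild-type). Of 6 epithelial markers 4 were covered in the knockout and 6 in wild-type, of 5 endothelial markers 2 in the knockout and 3 in wild-type, and of 5 neuronal markers 3 in the knockout and 1 in wild-type, where Elavl4 and Snap25 were covered in the knockout alone. In RNA, macrophage markers summed to 3.93 FPKM in the knockout and 2.89 FPKM in wild-type in the numbered tables, with Tyrobp, C1qa, C1qb and C1qc at 0 in both genotypes. In the unnumbered samples they summed to 12.6 FPKM in the knockout and 177 FPKM in wild-type, with 2 of 9 measured genes at 1 FPKM or more in the knockout and 9 of 9 in wild-type. Epithelial markers summed to 0.461 FPKM in the knockout and 0.0265 FPKM in wild-type in the numbered tables, and to 0.633 FPKM in the knockout and 0.738 FPKM in wild-type in the unnumbered samples. The part of macrophage RNA in the unnumbered differences given next was not tested.

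Genes covered by H3K27me3 reached 1 FPKM less often than genes nearly free of it. Among autosomal genes in the numbered tables, at least 1 FPKM in either genotype was reached by 80.0% of genes with under 10% cover in both, by 9.61% of genes covered in both, by 12.9% of those covered in the knockout alone and by 28.2% of those covered in wild-type alone. In the unnumbered samples these shares were 81.0%, 13.5%, 15.9% and 33.3%. Genes covered in wild-type alone thus reached 1 FPKM most often of the marked groups, in both RNA sets. Among genes that reached it in the numbered tables, the median of those with under 10% cover in both was 12.9 FPKM in the knockout and 13.2 FPKM in wild-type. For genes covered in both, these medians were 2.05 FPKM in the knockout and 2.06 FPKM in wild-type.

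RNA differences between the genotypes were small at the median in each cover class. Over all chromosomes, the median difference for genes covered in the knockout alone was 0.14 (110 measured genes) in the numbered and -0.12 (130 genes) in the unnumbered pair. For genes covered in wild-type alone it was -0.14 (281 genes) in the numbered and -0.22 (332 genes) in the unnumbered pair, against 0.06 and 0.01 over all measured genes. Genes covered in wild-type alone thus had, at the median, slightly less RNA in the knockout in both pairs. Genes covered in both genotypes had medians of 0.18 in the numbered and -0.10 in the unnumbered pair, and on autosomes 0.01 and -0.32, so on autosomes the unnumbered median was lower there than for genes covered in wild-type alone (-0.22). With at least 5 FPKM required, that median was -1.05 in the numbered and -0.37 in the unnumbered pair, and with no FPKM minimum it was 0.0034 in the numbered and 0 in the unnumbered pair. Of the genes covered in wild-type alone, 58 had at least 2-fold more RNA in the knockout and 82 at least 2-fold less in the numbered pair, where 6.47% of all 10096 measured genes had more and 15.3% less. In the unnumbered pair 15 had more and 50 less, against 1.47% and 3.54% of 10571 genes. As shares of this class these were 20.6% more and 29.2% less (numbered), and 4.52% more and 15.1% less (unnumbered). Among autosomal genes covered in both genotypes, 26.7% had more and 28.7% less in the numbered pair. In the unnumbered pair 3.95% of them had more and 20.4% less. Such differences were therefore not particular to genes covered in wild-type alone. Of the genes covered in the knockout alone, 18 had more (16.4%) and 16 less (14.5%) in the numbered pair. In the unnumbered pair 7 of that class had more (5.38%) and 12 less (9.23%). Folds are on the log2(FPKM + 1) scale, which understates changes of low genes.

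**Figure D5:**
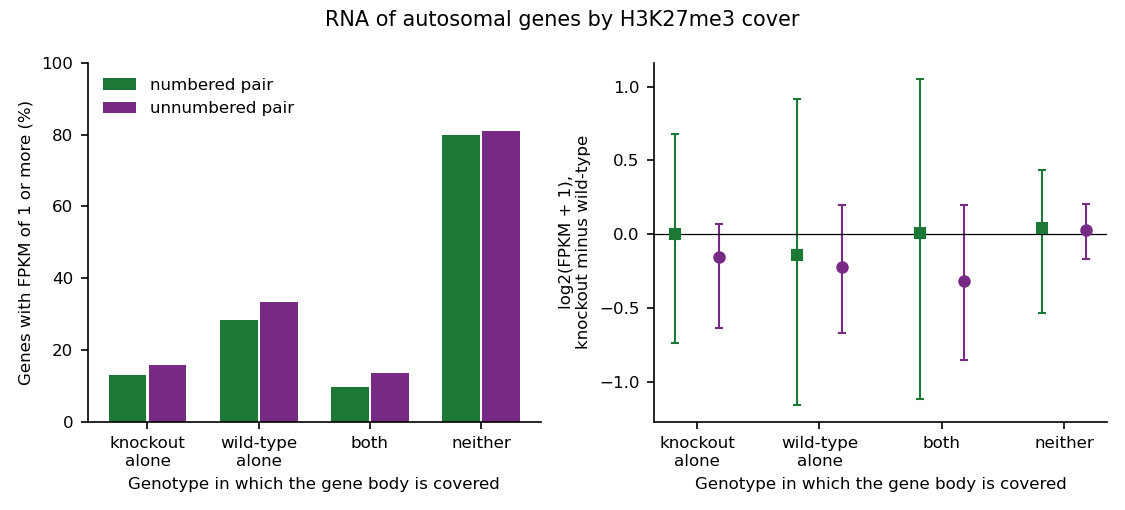
RNA of autosomal genes grouped by the genotype in which the gene body is covered: share with at least 1 FPKM (%, left) and log2(FPKM + 1), knockout minus wild-type (right; points are medians over genes and bars span the middle quartiles), for the numbered (green) and unnumbered (purple) RNA pairs. Genes covered in neither genotype are mostly transcribed, and the medians on the right lie between -0.32 and 0.04 while the bars overlap across groups.

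Single genes covered in wild-type alone differed in their RNA. Krt19, without the mark in the knockout, was at 9.53 FPKM in the knockout and 1.33 FPKM in wild-type in the numbered pair, and at 4.81 FPKM in the knockout and 1.15 FPKM in wild-type in the unnumbered pair. Slit3, whose body was free of most of the mark in the knockout, was at 7.02 FPKM in the knockout and 13.7 FPKM in wild-type, and at 18 FPKM in the knockout and 47.2 FPKM in wild-type in the unnumbered pair. Kif26b was at 2.13 FPKM in the knockout and 5.47 FPKM in wild-type, and at 11.2 FPKM in the knockout and 18.2 FPKM in wild-type in the unnumbered pair. Krt19 therefore had more RNA in the knockout in both pairs, and Slit3 and Kif26b had less in both. Clybl differed little, at 3.01 FPKM in the knockout and 2.48 FPKM in wild-type in the numbered pair. In the unnumbered pair it was at 7.38 FPKM in the knockout and 7.18 FPKM in wild-type. Krt80 had more RNA in the knockout in both pairs, though under 1 FPKM in the unnumbered one, and Hoxb4 had less in both. These genes are examples and not a count.

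Some genes covered in wild-type alone changed direction between the RNA pairs. Dlk1 (a Notch-like inhibitor of fat cell formation) was at 119 FPKM in the knockout and 1.82 FPKM in wild-type, but at 2.03 FPKM in the knockout and 11.1 FPKM in wild-type in the unnumbered pair. Ifit1 was at 17.6 FPKM in the knockout and 0.492 FPKM in wild-type, but at 0.632 FPKM in the knockout and 4.23 FPKM in wild-type in the unnumbered pair. Tap1, Psmb8, Emx2 and Slc22a23 likewise had more RNA in the knockout in the numbered pair and less in the unnumbered one. Pcsk6, at a signal minimum of 3 covered in wild-type alone, did not change direction. It was at 1.27 FPKM in the knockout and 16.6 FPKM in wild-type, and at 3.89 FPKM in the knockout and 6.56 FPKM in wild-type in the unnumbered pair. Ntm, Clstn2, Spock1, Pclo, Hs3st4, Tmem132d, Tenm4, Csrnp3 and Abca12 were under 1 FPKM in all 4 tables. Of 29 measured Polycomb and demethylase genes 28 reached 1 FPKM. Their median difference was 0.24 in the numbered and 0.04 in the unnumbered pair, and Ezh2 was at 38.3 FPKM in the knockout and 31.2 FPKM in wild-type, and at 7.60 FPKM in the knockout and 9.82 FPKM in wild-type in the unnumbered pair.

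The bases that changed hands differed in the other marks measured. Bases called for H3K27me3 in the knockout only lay in wild-type PML regions for 51.9% of their length, those called in wild-type only for 4.05%, those called in both for 18.9% and the whole analysed genome for 20.0%. On chromosome 5 the shares were 53.2% of knockout-only and 9.39% of wild-type-only bases, and on X they were 38.6% of knockout-only and 48.5% of wild-type-only bases, where the wild-type-only length is 0.237 Mb and the order is the opposite. Without chromosomes 5 and X they were 54.2% of knockout-only and 3.86% of wild-type-only bases, and at a signal of 3 or more 55.1% and 6.21%. H3K9me3 calls of the knockout held 43.3% of the knockout-only bases and 20.0% of the wild-type-only bases, and those of wild-type held 61.2% of the knockout-only bases and 25.2% of the wild-type-only bases. Over the whole analysed genome the H3K9me3 calls held 28.6% in the knockout and 32.7% in wild-type. On X the wild-type H3K9me3 calls held 43.0% of knockout-only bases and 48.4% of all bases, so the higher share in knockout-only bases did not hold there. Tagged H3.3 was called on 1.95% of knockout-only and 7.31% of wild-type-only bases in the knockout, and on 2.18% of knockout-only and 6.16% of wild-type-only bases in wild-type. Over the whole analysed genome it was called on 11.9% of bases in the knockout and 11.1% in wild-type. Over bases with H3K27me3 calls in both genotypes it was called on 2.38% in the knockout and 2.27% in wild-type. Both the knockout-only and the wild-type-only bases thus lay below the share of the whole genome.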

How the data were processed

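ChIP of H3K27me3 in MEFs gave 1 library per genotype, and RNA gave 3 numbered replicates, pooled by the authors, and 1 unnumbered sample per genotype. Alignment to mm10 with Bowtie 1.0.0 and TopHat2 2.0.8b, and expression with Cufflinks 2.2.1 and Cuffdiff 2.2.1, are named in the submitters' processing notes, and for the region caller the tool is not given in the sources used here. Lists of ChIP regions deposited by the authors hold 1 kb bins joined into regions with a signal, and a score that was not used for H3K27me3. The RNA tables deposited by the authors hold FPKM. Lines naming several genes (267 or 271 per table) were left out, and 92.4% of 22602 gene names matched the annotation.

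Lengths and gene cover were computed in pandas 2.3.3 and numpy 2.4.6 (Python 3.11.15) from base 3000000 of each chromosome, a start settled after calls in the first 3 Mb had been seen (24 Mb in the knockout, 27 Mb in wild-type). Genes are the protein-coding genes of RefSeq GRCm38.p6, and cover is the share of the gene body called. The cover functions were tested on simulated calls. Members, gene lists and settings were chosen with earlier results of these data known. Named genes are the 8 longest full switches per direction without predicted genes and receptors, the 10 strongest shared starts, up to 4 members per list and direction, and listed X genes. Read totals were not used here, so depth is unknown. Alternatives were other signal minima, other chromosome sets, H3 regions left out, other gene thresholds and other RNA settings.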

Additional observations from a re-analysis of the deposited data

Results flagged for a closer look

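The median RNA difference of genes covered by H3K27me3 in the knockout alone had opposite signs in the RNA pairs. It was 0.14 for the numbered tables and -0.12 for the unnumbered samples, on the scale of log2(FPKM + 1), knockout minus wild-type, and the difference between the pairs was not tested. On autosomes alone the medians were 0.0029 for the numbered tables and -0.15 for the unnumbered samples. On Y, which is outside the comparisons above, 2 wild-type H3K27me3 regions had a signal of 3 or more, while the knockout had 0.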

How the results depend on the processing

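No paired analysis was possible because each genotype has 1 H3K27me3 library and the numbered RNA replicates were pooled into 1 table per genotype.

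The ratio of covered length, knockout over wild-type, was 1.06 with all calls. It became 1.04 at a signal of 1 or more, 1.08 without H3 regions, 1.14 on chromosomes 1 to 9 and X, 1.05 on whole chromosomes and 1.02 without X. It turned below 1 at a signal of 5 or more (0.991) and 10 or more (0.893), on chromosomes 10 to 19 (0.914), and without chromosomes 5 and X (0.992), a choice made after seeing the data. At a signal of 3 or more the ratio of 1.02 became 1.04 without H3 regions, 1.13 on chromosomes 1 to 9 and X and 1.02 on whole chromosomes, and turned below 1 at 5 or more (0.991), on chromosomes 10 to 19 (0.835), without X (0.940) and without 5 and X (0.898). The cause was not tested, beyond the share of X and 5 shown above.

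The share of knockout length also called in wild-type, 74.7%, became 69.7% at a signal of 5 or more, 69.5% at 10 or more, 70.0% without H3 regions, 73.2% on chromosomes 1 to 9 and X, 78.3% on chromosomes 10 to 19 and 65.4% over the 500 Mb of highest signal in each library. That last setting makes the lengths equal, so no length ratio was run for it.

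Genes covered in the knockout alone numbered 688 (all calls) and 646 (signal of 3 or more) at a difference of 0.9 of the gene. They numbered 743 and 666 on chromosomes 1 to 9 and X, and 215 and 195 on chromosomes 10 to 19. Genes covered in wild-type alone numbered 539 (all calls) and 751 (signal of 3 or more) at a difference of 0.9 of the gene, 647 and 775 on chromosomes 1 to 9 and X, and 530 and 624 on chromosomes 10 to 19. These chromosome sets hold fewer genes. With all calls the knockout count was the higher at a difference of 0.9 and on chromosomes 1 to 9 and X. That is the opposite of the main order (958 for the knockout, 1177 for wild-type).

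Median RNA differences moved with every setting tried. With a pseudocount of 0.1 they were 0.17 (knockout alone, numbered), -0.13 (knockout alone, unnumbered), -0.17 (wild-type alone, numbered) and -0.27 (wild-type alone, unnumbered). With FPKM of at least 5 they were 0.047, -0.055, -1.05 and -0.37 in the same order. With no FPKM minimum they were 0, 0, 0.0034 and 0, where the cause of the sign turn of genes covered in wild-type alone was not tested. The unknown depth limits every comparison of calls between the libraries.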
